A study of Mus musculus with 24 samples.

Results

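The change described here is that of control mice between the first and the ninth hour of the light phase, the resting period of this nocturnal species. It rests on 16 of the 24 control animals measured on arrays, for which the paper states that samples of high RNA quality were selected. These are all 8 labelled with the first hour and all 8 labelled with the ninth hour. The 8 control animals of the fifth hour are given beside them. All were male Swiss-Webster mice aged 12 weeks, housed alone for 21 days under 12 h of light and 12 h of darkness, which had drunk the vehicle, 0.45% hydroxypropyl-β-cyclodextrin in water, during the preceding dark phase. RNA from the whole hippocampus of 1 control animal, labelled with Cy3, shared each microarray with RNA of 1 mouse given 100 µg/ml corticosterone, labelled with Cy5. RNA was not pooled, and no array had the reverse labelling. The animals of each hour came from several litters, but the labels do not give the litter of an animal, so that no paired analysis was possible.

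Circadian clocks are loops of transcription factors: CLOCK or NPAS2 acts with ARNTL on E-boxes, PER and CRY proteins repress them, and NR1D1 and the ROR factors govern the rhythm of *Arntl* itself. Such a loop runs in the hippocampus as in nearly all tissues and drives output factors such as DBP, while body temperature, feeding, sleep and adrenal glucocorticoids impose further daily rhythms on brain gene expression. In nocturnal rodents, body temperature and neuronal activity are lower during the resting period than during the active period, and corticosterone is low at its start and climbs towards its end.

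Each array measured 56605 probes by the median pixel intensity of their spots. The median Cy3 intensity of an array lay between 93.5 and 105 (median 99.5) in the first hour and had a median of 96.25 over the arrays of the ninth hour, the lowest at 92, over a local background of 28 to 31 in both. Of the spots, 60.8 to 67.2% were above background by the scanner software in the first hour and 61.3 to 66.4% in the ninth hour. Signal intensity below is the Cy3 intensity after normalization without offset. The arrays were printed on 3 slides, and the hours were not spread evenly over them: slide 1 held 4 of the 8 ninth-hour arrays, with 2 each of the other hours, and slides 2 and 3 each held 2 of the ninth hour and 3 each of the others. Of the 8 places on a slide, 1 held arrays of both the first and the ninth hour, on different slides, so that the place of an array and its hour cannot be told apart. The number of arrays limits the precision of all values.

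Some arrays and animals stood apart, all on slide 3, which was noticed after the data had been seen. Spots in the first 16 columns were dim in both channels on the array of first hour replicate 6, where their median log2 difference from the same spots of the hour was -0.11 in Cy3 and -0.10 in Cy5, and on the array of replicate 7 of the fifth hour, where it was -0.75 and -0.78. On the other arrays this value lay between -0.041 and 0.093. On the array of replicate 7 of the fifth hour, 903 genes were much dimmer in Cy3 than in the hour. Of these, 523 lay in the first 16 columns, so dim spots were not confined to them. Control replicate 8 of the first hour and control replicate 8 of the ninth hour had high interferon-stimulated genes, the antiviral program: the median of 18 such genes was 2.62-fold and 2.34-fold the median of the hour, and 13 of the 18 exceeded 2-fold in either animal. The animal next to them, ninth hour replicate 4, stood at 1.27-fold. Counts without these arrays are given with the first counts.

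**Figure D1:**
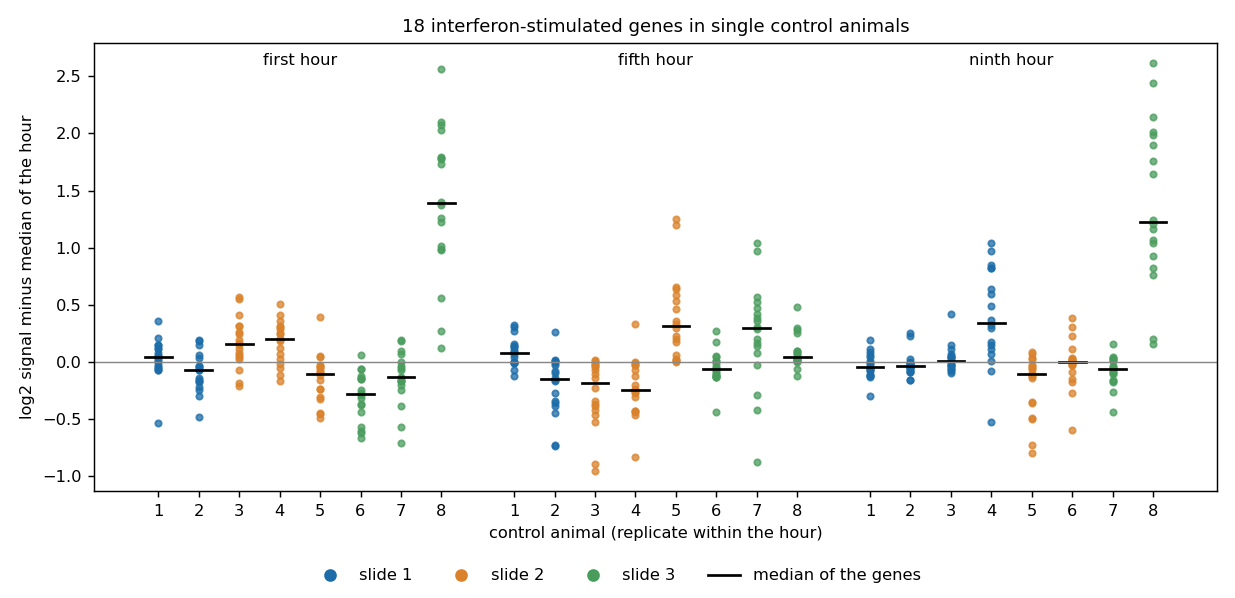
Log2 signal of 18 interferon-stimulated genes in each of the 24 control animals, as the difference from the median of the animal's hour; each point is a gene, colored by slide, and bars mark the median of the genes. The highest animal of the first hour and the highest of the ninth hour are both replicate 8, on slide 3.

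In the hippocampus of control animals, the clock genes *Nr1d1*, *Dbp* and *Ciart*, the cold-inducible genes *Cirbp* and *Rbm3*, and the metallothionein genes *Mt2* and *Mt1* were higher in the ninth than in the first hour, with log2 fold changes between 0.45 and 1.10 (n = 8 and 8). The clock output *Nfil3*, the chaperone genes *Fkbp4*, *Hspb1*, *Dnaja1*, *Hsp90b1* and *Pdia6*, the splicing factor gene *Tra2a*, and the activity-regulated genes *Arc* and *Fos* were lower. In the lists that hold *Tra2a* and *Arc*, *Hnrnpdl* (log2 0.33) and *Klf4* (log2 0.49) were higher. Most of the clock loop, the genes chosen for the lists of synaptic transmission, ion channels, cholesterol synthesis, glycolysis, the respiratory chain and ribosomes, and nearly all listed cell type markers displayed no significant difference. Changes were small, and among the significant genes *Nr1d1* (1.01) and *Ciart* (1.10) reached a log2 fold change of 1. Without the arrays with dim columns *Ciart* did not (0.92), while *Nr1d1* (1.01), *Mt2* (1.04) and *Fos* (-1.08) did.

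By the separate channel test of limma, 304 of 56605 probes displayed significant differences between the hours (0.537%, adjusted p under 0.05), 163 of them higher and 141 lower in the ninth hour; 5801 probes had an unadjusted p under 0.05. With Cy3 alone in place of both channels, 422 probes differed, 51.9% of them higher in the ninth hour in place of 53.6%. With the processed green signals of the scanner software alone, 73 probes differed, and 39.7% of them were higher. Both alternatives left out Cy5, the loess step and the arrays of the fifth hour at once. The second also changed the signal, its background correction and the normalization between arrays. With both channels and the arrays of the first and the ninth hour only, 476 probes differed. Of the probes that differed, 249 had a gene name. Taking each gene by its brightest probe, 199 of 23787 genes differed (0.837%), 108 higher (0.454%) and 91 lower (0.383%), and the median log2 fold change over all genes was 0.0048. At an unadjusted p under 0.05, 12.2% of the genes differed, 6.77% higher and 5.47% lower. Of the 199 genes, 194 were above background on all 16 arrays. Among the probes that differed, the absolute log2 fold change had a median of 0.34 and was under 0.50 for 260.

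Within slides, the median log2 difference between the hours over all genes was 0.022 on slide 1, -0.022 on slide 2 and 0.018 on slide 3. With slide as a block, 280 probes differed, and 167 of the 199 genes were among them. Without slide 1, which held 4 of the 8 animals of the ninth hour, 5 probes differed, those of *Dbp*, *Mt2*, *St13*, *Hnrnpdl* and *Armcx5*, the last named after its values were seen, and 2952 probes had an unadjusted p under 0.05. Without slide 2 the count was 237, and without slide 3 it was 130. Leaving out the arrays with dim columns gave 355 probes, with 177 of the 199 genes among them, and leaving out the animals with high interferon-stimulated genes gave 274 probes and 150 of the genes. In a fit of the control channels of all 24 arrays with hour and slide, slide displayed significant differences for 2 probes, none of them of the 199 genes, and hour, over all 3 hours at once, for 150 probes. For the significant genes named below, the adjusted p without slide 1 was the highest of 19 alternatives, except for *Hnrnpdl*, *Mt2*, *Mt1* and *St13*, whose highest were 0.08634, 0.0009078, 0.09568 and 0.05581.

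**Figure D2:**
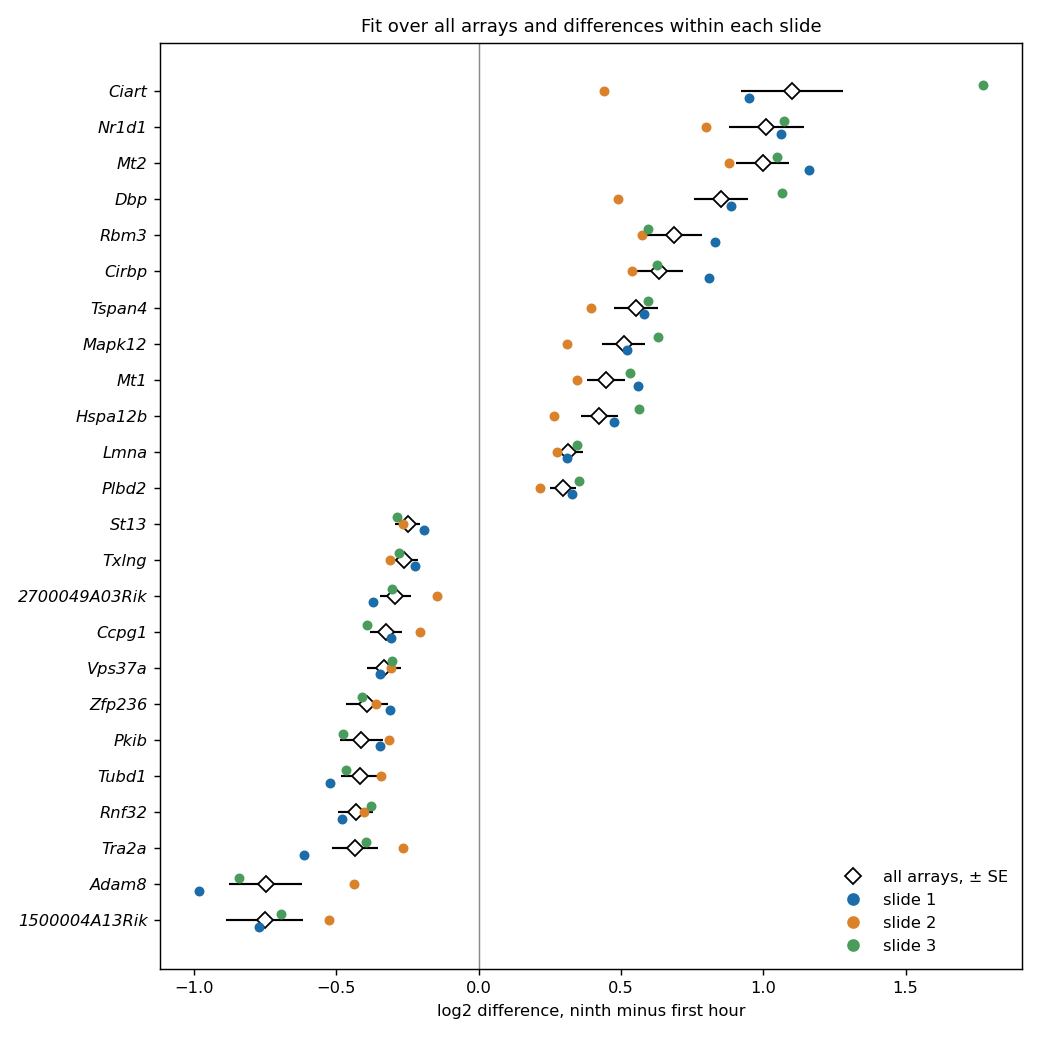
Log2 difference between the ninth and the first hour for the 12 genes that rose and the 12 that fell with the smallest adjusted p. Open diamonds with bars are the fit over all arrays with its SE, and points are the differences of the group means within slides 1, 2 and 3. The genes were chosen from these same arrays.

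Of the 12 measured genes of the core clock loop, 1 rose and none fell (8.33%, against 0.837% of all genes), and the median log2 fold change was 0.042. The gene that rose was *Nr1d1*, which encodes the nuclear receptor REV-ERB alpha, a repressor of *Arntl*. Its signal intensity lay between 352 and 492 (median 404) in the first hour and between 642 and 1041 (median 817) in the ninth hour. All 8 animals of the ninth hour were above all 8 of the first. The log2 fold change was 1.01 (adjusted p = 5.15e-06, SE 0.131), with 1.06, 0.80 and 1.07 on slides 1, 2 and 3 and 0.99 with slide as a block. Without slide 1 it was 0.93 (adjusted p = 0.07164). The fifth hour lay between the other hours, with a median of 658.

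The paralog *Nr1d2* had a median of 2833 in the first and 3285 in the ninth hour, which was not significant (log2 0.17, adjusted p = 0.189, SE 0.0599), and its groups overlapped. Among the repressors of the loop, *Per1* had medians of 2884 and 3175 (log2 0.12, adjusted p = 0.416), *Per2* of 1881 and 1727 (log2 -0.16, adjusted p = 0.433) and *Per3* of 428 and 427 (log2 -0.094, adjusted p = 0.927). The cryptochrome genes, whose proteins act with the PER proteins, likewise displayed no significant difference. *Cry1* was dim, with medians of 81.8 and 66.7 (log2 -0.29, adjusted p = 0.348), and *Cry2* had a log2 fold change of 0.044 (adjusted p = 0.813). The activators were close to level between these hours, with a log2 fold change of -0.013 for *Arntl* (adjusted p = 0.972), -0.079 for *Clock* (adjusted p = 0.671) and 0.084 for the dim *Npas2* (adjusted p = 0.836). The same held for *Rora* (log2 0.039, adjusted p = 0.93). All these groups overlapped.

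The fifth hour placed some of these genes outside the range of the other hours. *Arntl* had medians of 779.7, 952 and 779 in the first, the fifth and the ninth hour, *Per1* of 2884, 2650.2 and 3175, and *Per2* of 1881, 1535 and 1727. Of these steps, that of *Per1* from the fifth to the ninth hour was significant (log2 0.25, adjusted p = 0.0456), and those of *Arntl* (log2 0.25 and -0.27, adjusted p = 0.348 and 0.24) and of *Per2* (log2 -0.33 and 0.17, adjusted p = 0.142 and 0.709) were not. The list of clock protein turnover holds kinases and ubiquitin ligases that act on PER and CRY proteins. None of its 11 measured genes displayed a significant difference between the first and the ninth hour by limma (median log2 0.00075). Of these genes, 1 higher and 3 lower had an unadjusted p under 0.05, against 6.77% and 5.47% of all genes. The smallest adjusted p was that of the ubiquitin ligase gene *Fbxw11* (log2 -0.11, adjusted p = 0.183).

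Of the 13 measured D-box factors and clock outputs, 2 rose and 1 fell (23.1%, against 0.837% of all genes). The median log2 fold change of the list was -0.024. *Dbp* encodes an activator that binds D-boxes. Its signal intensity lay between 8052 and 11261 (median 8787) in the first hour and between 12231 and 18973 (median 17038) in the ninth hour. The groups did not overlap. The log2 fold change was 0.85 (adjusted p = 5.19e-08, SE 0.0933), with 0.89, 0.49 and 1.07 on the slides, 0.81 with slide as a block and 0.78 without slide 1 (adjusted p = 0.01139), and a second probe gave 0.63 (adjusted p = 3.74e-06). Nearly all of the rise came after the fifth hour, with a log2 difference of 0.089 from the first to the fifth hour (adjusted p = 0.872) and of 0.76 from the fifth to the ninth (adjusted p = 2.28e-06).

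*Ciart* encodes a repressor of CLOCK and ARNTL. Its signal intensity lay between 52 and 185 (median 142) in the first hour and between 185 and 337 (median 278) in the ninth hour. The groups barely overlapped, with 7 of the 8 animals of the ninth hour above all of the first, and the lowest animal of the first hour was that on the array with dim columns, where the *Ciart* spot lies. The log2 fold change was 1.10 (adjusted p = 0.000104, SE 0.178), with 0.95, 0.44 and 1.77 on the slides and 1.04 with slide as a block. It was 0.92 without the arrays with dim columns (adjusted p = 1.247e-05) and 1.10 without slide 1 (adjusted p = 0.1303). A dimmer *Ciart* probe, with a mean signal of 45, gave 0.26 (adjusted p = 0.447). From the fifth to the ninth hour the log2 difference was 0.88 (adjusted p = 0.0115), with the fifth-hour array that had dim columns included.

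*Nfil3* encodes a repressor that binds the same D-boxes as DBP. It had a signal intensity between 848 and 1206 (median 1014) in the first hour and between 746 and 976 (median 798) in the ninth hour. In 7 of the 8 animals of the ninth hour it was below all of the first hour. *Nfil3* fell by 0.33 in log2 units (adjusted p = 0.0126, SE 0.0738), with -0.37, -0.31 and -0.29 on the slides, -0.32 with slide as a block and -0.30 without slide 1 (adjusted p = 0.4509). It did not pass with Cy3 alone and slide as a block, without slide 2, without slide 3 or with the processed green signal either. Its second probe had the same log2 fold change of -0.33 but was not significant (adjusted p = 0.121).

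The other D-box activators displayed no significant difference: *Tef* had medians of 35026 and 30129 (log2 -0.19, adjusted p = 0.0503, SE 0.0514), with overlap, and *Hlf* had a log2 fold change of -0.044 (adjusted p = 0.936). *Tef* passed the threshold under 7 of 19 alternatives. Neither the E-box repressor genes *Bhlhe40* (log2 0.22, adjusted p = 0.302) and *Bhlhe41* (log2 0.037, adjusted p = 0.939) nor the zinc finger genes *Klf10* (log2 -0.25, adjusted p = 0.323) and *Klf15* (log2 0.078, adjusted p = 0.857) differed significantly. The remaining members were the gene of the NAD synthesis enzyme *Nampt* (log2 -0.15, adjusted p = 0.471), the deadenylase gene *Noct* (log2 0.021, adjusted p = 0.932), and the kinase genes *Sik1* (log2 -0.042, adjusted p = 0.915) and *Wee1* (log2 -0.024, adjusted p = 0.94). Their groups overlapped in every case.

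The promoters of clock and stress genes that differed were searched for short motifs, in RefSeq sequences from 250 bases before to 50 bases after the start (GRCm38.p6). Of 11 genes looked for, 10 were in the table, and *Rbm3* was not. The *Ciart* promoter is shown because its window holds 3 E-boxes (CACGTG, a palindrome), in capitals at -116, -58 and -44 from the start; it lies on the minus strand of chr3:95882179-95882478.
Ciart: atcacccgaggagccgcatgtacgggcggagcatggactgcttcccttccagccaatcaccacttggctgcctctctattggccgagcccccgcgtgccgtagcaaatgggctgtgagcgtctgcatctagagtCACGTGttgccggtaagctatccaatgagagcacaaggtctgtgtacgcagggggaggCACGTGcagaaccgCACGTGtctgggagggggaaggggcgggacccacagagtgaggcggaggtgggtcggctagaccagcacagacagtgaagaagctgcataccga
Of 32851 promoters of this length, 7.15% hold at least 1 E-box, 0.594% at least 2 and 0.0883% at least 3. The windows of *Dbp* and *Nr1d1* hold no E-box, D-box (TTATGNAA) or ROR element (WNNAGGTCA), and that of *Nfil3* holds a ROR element at -12, as do 8.17% of all promoters.

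**Figure D3:**
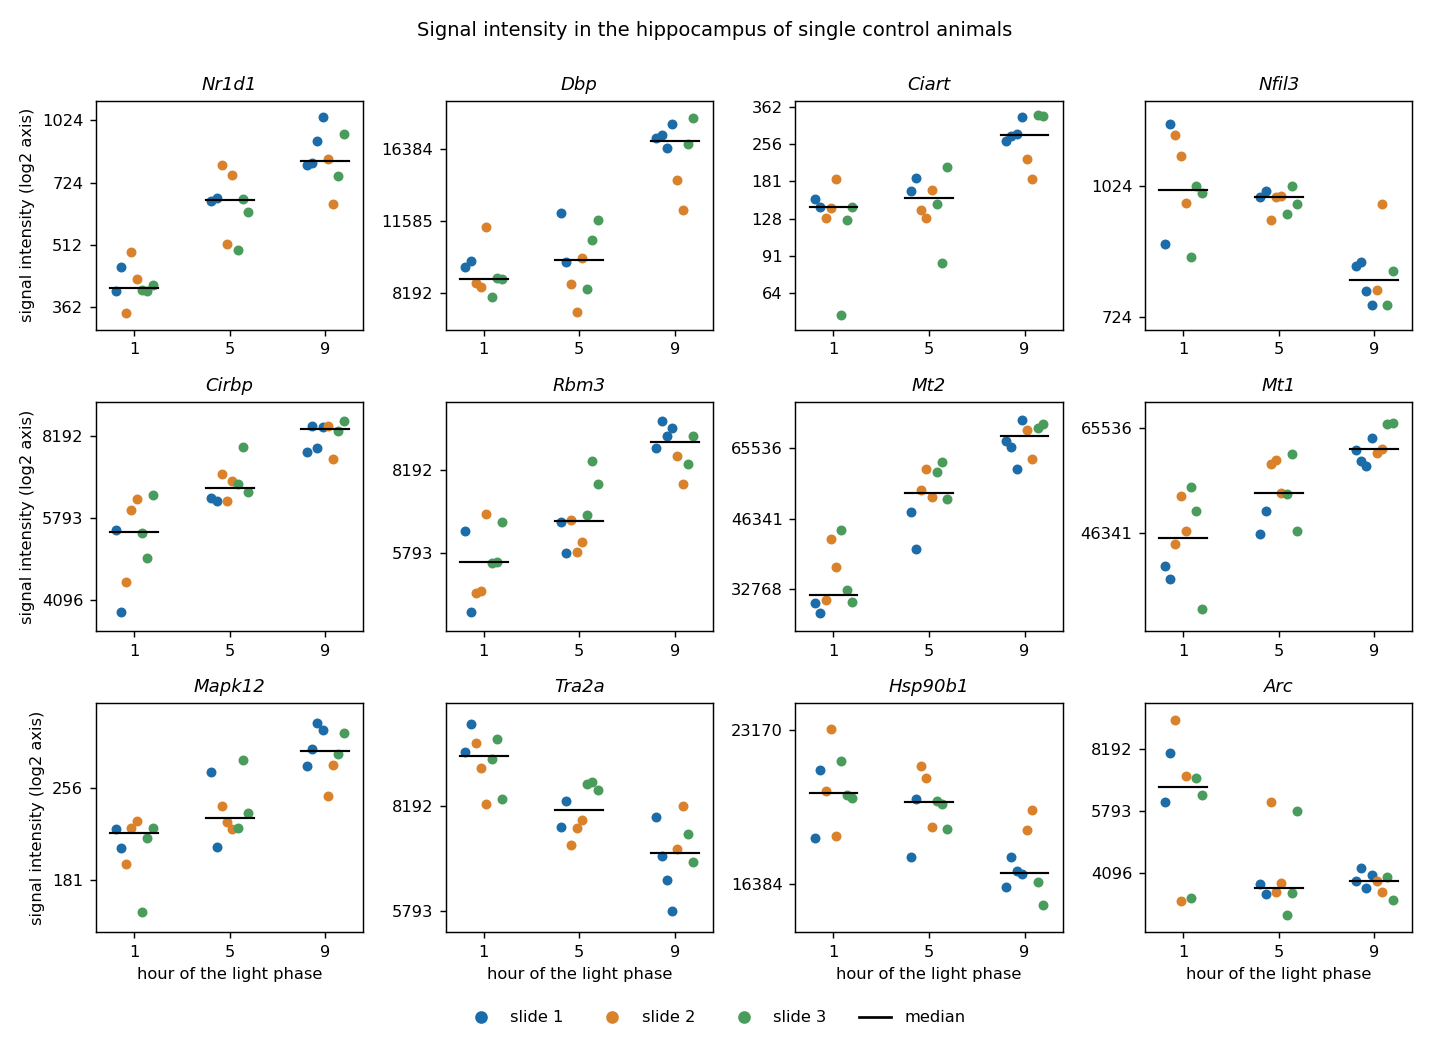
Signal intensity (log2 axis) in the hippocampus of each control animal by hour of the light phase for 12 genes with a significant change over these hours, with 8 animals per hour colored by slide and bars at the medians. The ninth hour lies wholly above the first for Nr1d1, Dbp, Cirbp, Rbm3, Mt2, Mt1 and Mapk12 and wholly below it for Tra2a, and the groups overlap for Ciart, Nfil3, Hsp90b1 and Arc.

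Both measured cold-inducible RNA-binding protein genes rose, with a median log2 fold change of 0.66. *Cirbp* and *Rbm3* encode proteins that bind mRNA and become abundant when cells are mildly cooled; body temperature was not measured on the arrays. *Cirbp* had a signal intensity between 3892 and 6362 (median 5462) in the first hour and between 7426 and 8719.5 (median 8422) in the ninth hour. *Rbm3* lay between 4537 and 6819.7 (median 5568) in the first and between 7714 and 10027 (median 9182) in the ninth hour. For both genes, every animal of the ninth hour was above every animal of the first, and the fifth hour lay between them, with medians of 6570.4 and 6612.

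The log2 fold change of *Cirbp* was 0.63 (adjusted p = 1.51e-05, SE 0.0872), with 0.81, 0.54 and 0.63 on the slides and 0.64 with slide as a block. Without slide 1 it was 0.58 (adjusted p = 0.0572). That of *Rbm3* was 0.69 (adjusted p = 4.79e-05, SE 0.101), with 0.83, 0.57 and 0.59 on the slides and 0.66 with slide as a block. Without slide 1 it was 0.58 (adjusted p = 0.08284). The probes of these genes did not all move alike. Of the dimmer *Cirbp* probes, A_55_P2506450 rose (log2 0.63, adjusted p = 0.00247) and A_55_P1985001 displayed no significant difference (log2 0.082, adjusted p = 0.923). Of the dimmer *Rbm3* probes, A_55_P2117525 and A_55_P2901762 rose (log2 0.67 and 0.69, adjusted p = 0.00202 and 0.000758), while A_55_P2766239, with a mean signal of 70.2, fell by 0.78 in log2 units (adjusted p = 0.00263, SE 0.156). Which transcript each probe reads was not tested.

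Cytosolic heat shock genes, whose products fold and refold proteins, mostly had negative log2 fold changes, which was not tested for the group. *Hspb7*, a small heat shock gene outside the list, rose (log2 0.40, adjusted p = 0.0197, mean signal 50.5) and was named after its values were seen. Of the 29 measured genes of the list, none rose and 3 fell (10.3%, against 0.383% of all genes that fell), and 22 had a negative log2 fold change. At an unadjusted p under 0.05, 12 were lower and none higher, against 5.47% and 6.77% of all genes. The median log2 fold change of the list was -0.12, against 0.0048 over all genes, and -0.14, -0.097 and -0.16 on the slides. *Hspb1* encodes a small heat shock protein and had a signal intensity between 2398 and 3462 (median 3181) in the first and between 2049 and 2863 (median 2325) in the ninth hour. Of the 8 animals of the ninth hour, 5 were below all of the first. *Hspb1* fell by 0.40 in log2 units (adjusted p = 0.0265, SE 0.0965), with -0.31, -0.42 and -0.39 on the slides; with slide as a block it no longer differed significantly (log2 -0.37, adjusted p = 0.05089).

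*Fkbp4*, the gene of an HSP90 co-chaperone in steroid receptor complexes, had a signal intensity between 4678 and 5895 (median 5126) in the first and between 4218 and 4768 (median 4405) in the ninth hour. It was below all animals of the first hour in 7 of the 8 animals of the ninth. *Fkbp4* fell by 0.23 in log2 units (adjusted p = 0.0206, SE 0.0556, with -0.23, -0.26 and -0.25 on the slides, and -0.24 with slide as a block), while its dimmer probes had log2 fold changes of -0.079 and 0.047 (adjusted p = 0.735 and 0.875). *Dnaja1*, the gene of a co-chaperone of HSP70 proteins, lay between 14552 and 16542 (median 15374) in the first and between 12852 and 14443 (median 13465) in the ninth hour. Its groups did not overlap. *Dnaja1* fell by 0.19 in log2 units (adjusted p = 0.0307, SE 0.0496, with -0.18, -0.20 and -0.22 on the slides, and -0.20 with slide as a block). A dimmer *Dnaja1* probe had a log2 fold change of 0.015 (adjusted p = 0.976). Without slide 1, the log2 fold changes of *Hspb1*, *Fkbp4* and *Dnaja1* were -0.41, -0.26 and -0.21 (adjusted p = 0.4124, 0.4531 and 0.6139). None of them passed without slide 2, without slide 3 or with the processed green signal either, and over the settings compared between 0 and 5 genes of the list fell and none rose.

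The list of stress in the endoplasmic reticulum (ER) holds chaperones and other genes. Of its 28 measured members, none rose and 2 fell (7.14%, against 0.383% of all genes that fell). With slide as a block 3 fell, where *Sdf2l1* was added, named after its values were seen. The number that fell was 6 with Cy3 alone, 5 with the arrays of the first and the ninth hour only, 1 without slide 2, 1 without slide 3 and 0 without slide 1 by limma. In all, 20 had a negative log2 fold change, and the median was -0.050. At an unadjusted p under 0.05, 10 were lower and 4 higher, against 5.47% and 6.77% of all genes. *Hsp90b1*, the gene of the HSP90 protein of the ER, had a signal intensity between 18189 and 23219 (median 20136) in the first and between 15623 and 19356 (median 16826) in the ninth hour. The groups overlapped, with 6 of 8 animals of the ninth hour below all of the first. *Hsp90b1* fell by 0.24 in log2 units (adjusted p = 0.0104, SE 0.0546), with -0.22, -0.11 and -0.36 on the slides and -0.23 with slide as a block. *Pdia6*, the gene of a disulfide isomerase, lay between 13619 and 18073 (median 15571) in the first and between 11519.8 and 12984 (median 12538) in the ninth hour. All animals of the ninth hour were below all of the first. *Pdia6* fell by 0.35 in log2 units (adjusted p = 0.0148, SE 0.0799), with -0.29, -0.36 and -0.42 on the slides and -0.35 with slide as a block. Without slide 1, neither *Hsp90b1* (log2 -0.24, adjusted p = 0.4538) nor *Pdia6* (log2 -0.40, adjusted p = 0.3201) differed significantly. *Hsp90b1* also did not pass with Cy3 alone and slide as a block, without slide 3 or with the processed green signal. *Pdia6* also did not pass without slide 2 or without slide 3.

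**Figure D4:**
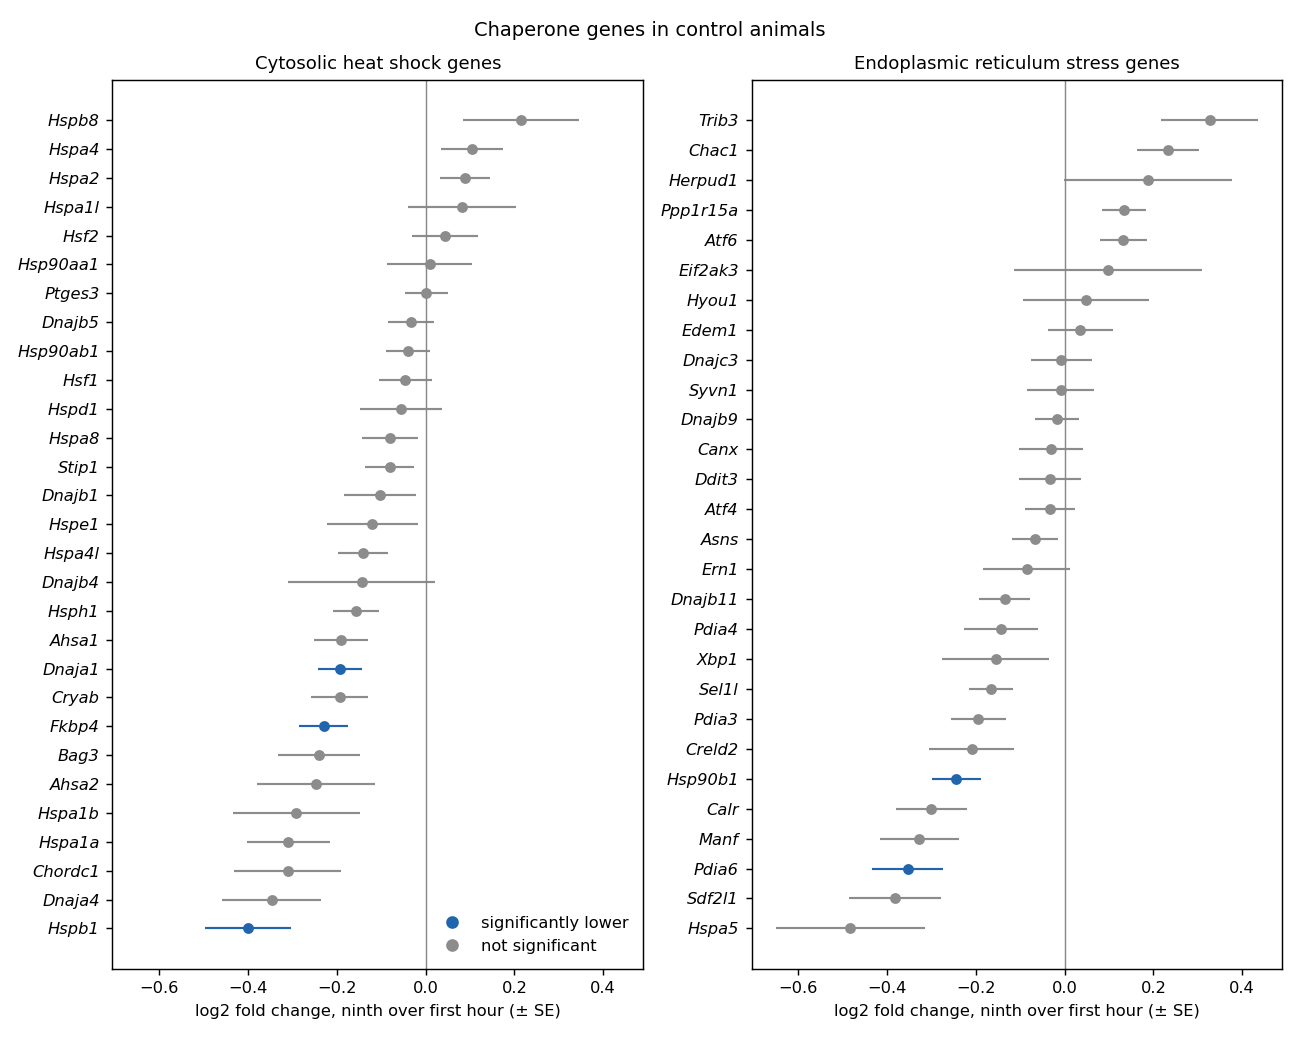
Log2 fold change of the ninth over the first hour, with its SE, for 29 measured cytosolic heat shock genes and 28 measured genes of endoplasmic reticulum stress in control animals. Blue points are significant differences; 22 and 20 of the genes lie below 0.

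Among 30 measured splicing factor genes, 1 rose and 1 fell (6.67%, against 0.837% of all genes), and 23 had a negative log2 fold change. An unadjusted p under 0.05 was reached by 2 higher and 7 lower genes, against 6.77% and 5.47% of all genes. The median of the list was -0.052 (-0.047, 0.042 and -0.081 on the slides). *Hnrnpdl*, the gene of a nuclear RNA-binding protein, had a signal intensity between 8991 and 11030.0 (median 10184) in the first and between 11120.2 and 14387 (median 12713) in the ninth hour. *Tra2a*, the gene of an activator of splicing, lay between 8254 and 10758 (median 9695) in the first and between 5793 and 8204 (median 7028) in the ninth hour. Neither pair of groups overlapped. *Hnrnpdl* rose by 0.33 in log2 units (adjusted p = 0.000283, SE 0.0551, with 0.21, 0.43 and 0.43 on the slides, 0.34 with slide as a block) and was among the 5 genes that differed without slide 1 (log2 0.43, adjusted p = 0.001188). *Tra2a* fell by 0.43 (adjusted p = 0.00145, SE 0.0801, with -0.61, -0.27 and -0.39 on the slides, -0.41 with slide as a block); without slide 1 its log2 fold change was -0.33 (adjusted p = 0.3201).

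Immediate early genes, which neurons transcribe within minutes of activity, were mixed. Of 33 measured, 1 rose and 2 fell (9.09%, against 0.837% of all genes), and 22 had a negative log2 fold change. An unadjusted p under 0.05 was reached by 4 higher and 6 lower genes, against 6.77% and 5.47% of all genes. The median of the list was -0.034 (-0.033, -0.12 and 0.010 on the slides). *Arc*, which encodes a synaptic protein of plasticity, had a signal intensity between 3485 and 9633 (median 6635) in the first hour, between 3224 and 6102 (median 3757) in the fifth and between 3516 and 4209 (median 3909) in the ninth. The animals of the ninth hour lay close together, and those of the first were spread widely, with the lowest of them below the whole ninth hour. *Arc* fell by 0.64 in log2 units (adjusted p = 0.0295, SE 0.157, with -0.81, -0.70 and -0.52 on the slides, -0.63 with slide as a block), with a log2 difference of -0.56 from the first to the fifth hour (adjusted p = 0.348). Without the animals with high interferon-stimulated genes the log2 fold change was -0.62 (adjusted p = 0.08883), and without slide 1 -0.61 (adjusted p = 0.645). With Cy3 alone, with or without slide as a block, *Arc* did not pass either.

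*Fos*, the gene of a transcription factor induced by neuronal activity, lay between 229 and 579 (median 408) in the first and between 173 and 231 (median 208) in the ninth hour. In 6 of the 8 animals of the ninth hour it was below all of the first. *Fos* fell by 0.96 in log2 units (adjusted p = 0.0476, SE 0.259, with -0.99, -1.31 and -0.69 on the slides, -0.95 with slide as a block), by 0.94 without the animals with high interferon-stimulated genes (adjusted p = 0.09965), and by 0.99 without slide 1 (adjusted p = 0.7082). *Klf4*, the gene of a zinc finger transcription factor, went the other way, from between 668 and 976 (median 831) in the first to between 827 and 1532 (median 1135) in the ninth hour. The groups overlapped, with 7 of 8 animals of the ninth hour above all of the first. *Klf4* rose by 0.49 in log2 units (adjusted p = 0.0262, SE 0.117, with 0.60, 0.38 and 0.31 on the slides, 0.46 with slide as a block, and 0.34 with adjusted p = 0.8867 without slide 1).

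The list of MAP kinases and their dual-specificity phosphatases, which pass signals from receptors to the nucleus, held 27 measured genes. Of these, 1 rose and none fell (3.70%, against 0.837% of all genes), and the median log2 fold change was -0.018. *Mapk12*, the gene of a stress-activated kinase, had a signal intensity between 161 and 227 (median 216) in the first and between 249 and 327 (median 294) in the ninth hour. The groups did not overlap. Its log2 fold change was 0.51 (adjusted p = 5.47e-05, SE 0.0758), with 0.52, 0.31 and 0.63 on the slides and 0.50 with slide as a block. Without slide 1 it was 0.47 (adjusted p = 0.1268).

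Metallothioneins are small proteins that bind zinc and copper. Of 19 measured genes of metallothioneins and zinc handling, 2 rose and none fell (10.5%, against 0.837% of all genes), with a median log2 fold change of 0.036. At an unadjusted p under 0.05, 5 were higher and none lower, against 6.77% and 5.47% of all genes. *Mt2* had a signal intensity between 29132 and 43802 (median 31851) in the first hour, between 39906 and 61099.7 (median 52429.5) in the fifth and between 59008 and 75412 (median 69652) in the ninth. *Mt1* lay between 36139 and 53946 (median 45698) in the first, between 46257 and 60045 (median 52811) in the fifth and between 57799 and 66488 (median 61011) in the ninth hour. For both genes the first and the ninth hour did not overlap, and the fifth lay between them.

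*Mt2* had the smallest adjusted p of all probes, with a log2 fold change of 0.998 (adjusted p = 4.92e-10, SE 0.0923), 1.16, 0.88 and 1.05 on the slides, 1.02 with slide as a block and 0.98 without slide 1 (adjusted p = 7.42e-06). Its rise was significant by the fifth hour (log2 0.61, adjusted p = 0.000773), as was that of 1 other gene, *Slc15a3*, named after its values were seen. *Mt1* had a log2 fold change of 0.45 (adjusted p = 4.79e-05, SE 0.0668), with 0.56, 0.34 and 0.53 on the slides and 0.46 with slide as a block. Without slide 1 it was 0.45 (adjusted p = 0.06436). With Cy3 alone, the log2 fold changes of *Mt2* and *Mt1* were smaller, 0.89 and 0.39 (adjusted p = 1.374e-05 and 0.006701 by limma). In the corticosterone-treated animals of the same arrays, both genes moved in the opposite direction between these hours, with log2 fold changes of -0.83 and -0.31, and the difference between the treatments was significant (log2 -1.82 and -0.76, adjusted p = 6.62e-17 and 2.55e-09). The *Mt2* promoter is shown because of these differences. It lies on the plus strand of chr8:94172368-94172667 and holds 2 metal response cores of the form TGCGCNC on either strand. They are in capitals at -128 and 5 from the start. Only this form was searched, so sites with A at the fourth base (TGCACNC) are neither counted nor marked.
Mt2: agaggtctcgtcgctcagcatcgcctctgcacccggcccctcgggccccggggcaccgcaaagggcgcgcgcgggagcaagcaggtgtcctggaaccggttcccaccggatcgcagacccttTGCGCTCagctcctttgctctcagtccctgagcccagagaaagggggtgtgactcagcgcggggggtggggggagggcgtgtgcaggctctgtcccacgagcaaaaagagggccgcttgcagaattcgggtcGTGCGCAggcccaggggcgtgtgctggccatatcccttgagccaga
The *Mt1* window holds 1 core of the searched form TGCGCNC, at 21, with sites of the form TGCACNC not counted. Among the other genes searched, so do those of *Nr1d1*, at -49, and 1 of 2 promoters of *Cirbp*, at -13, while of 3 promoters of *Dnaja1*, which fell, 1 holds 2 cores and the others 1 each. Of all promoters, 15.4% hold at least 1 core of the searched form and 4.2% at least 2.

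Of 34 measured genes of the glucocorticoid receptor and its response, none displayed a significant difference by limma. At an unadjusted p under 0.05, 1 was higher and 6 were lower, against 6.77% and 5.47% of all genes. With Cy3 alone, with or without slide as a block, *Timp4* of this list was lower, named after its values were seen. The median log2 fold change of the list was -0.083 (-0.070, -0.14 and -0.0032 on the slides), and 21 genes had a negative value. *Sult1a1*, the gene of a sulfotransferase, had the smallest adjusted p of the list. Its brightest probe lay between 529 and 1107 (median 730.4) in the first and between 479.8 and 754 (median 521) in the ninth hour, with a log2 fold change of -0.46 (adjusted p = 0.0764, SE 0.124). The groups overlapped. Its second probe, A_55_P2005475, fell by 0.45 in log2 units (adjusted p = 0.0403, SE 0.109).

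The chosen lists of energy and lipid metabolism held 1 significant gene. Of 21 measured genes of fatty acid oxidation and ketone use, none rose and 1 fell (4.76%, against 0.837% of all genes). The median log2 fold change was 0.017. An unadjusted p under 0.05 was reached by 6 higher and 3 lower genes, against 6.77% and 5.47% of all genes. The gene that fell was *Acot11*, which encodes a thioesterase that splits acyl-CoA; it lay between 2888 and 3564 (median 3121) in the first and between 2183 and 2846 (median 2554) in the ninth hour. The groups did not overlap. *Acot11* fell by 0.33 in log2 units (adjusted p = 0.00379, SE 0.067, with -0.33, -0.34 and -0.21 on the slides, -0.30 with slide as a block, and -0.27 with adjusted p = 0.5097 without slide 1), and its dimmer probe had a log2 fold change of -0.24 (adjusted p = 0.498).

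No gene differed significantly by limma among 23 measured genes of cholesterol synthesis (6 at an unadjusted p under 0.05; median log2 0.039), 15 of fatty acid synthesis (2 and -0.010), 21 of glycogen metabolism (3 and 0.027), 24 of glucose transport and glycolysis (3 and 0.023), 43 of the respiratory chain (2 and 0.010), 26 of glutathione and antioxidant enzymes (1 and 0.021) or 18 of the hypoxia response (7 and -0.037). The genes with the smallest adjusted p among these lists were the sterol reductase gene *Dhcr7* (log2 0.33, adjusted p = 0.146), the malonyl-CoA decarboxylase gene *Mlycd* (log2 -0.26, adjusted p = 0.295), the glycogen-targeting subunit gene *Ppp1r3c* (log2 -0.16, adjusted p = 0.0877), the pyruvate dehydrogenase kinase gene *Pdk1* (log2 -0.15, adjusted p = 0.229), the complex III gene *Uqcrc1* (log2 0.12, adjusted p = 0.259), the glutathione reductase gene *Gsr* (log2 0.24, adjusted p = 0.389) and the prolyl hydroxylase gene *P4ha1* (log2 -0.22, adjusted p = 0.25). All of their groups overlapped. Of all genes, 12.2% had an unadjusted p under 0.05. In the hypoxia response 2 higher and 5 lower genes did, and in cholesterol synthesis 4 higher and 2 lower genes.

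The lists of protein turnover held 1 significant gene. Of 30 measured proteasome genes, 1 rose and none fell (3.33%, against 0.837% of all genes), and 26 had a positive log2 fold change. At an unadjusted p under 0.05, 5 were higher and none lower, against 6.77% and 5.47% of all genes. The median of the list was 0.032 (0.046, -0.0013 and 0.080 on the slides). *Psmb3*, the gene of a subunit of the proteolytic core, had a signal intensity between 13269.6 and 14830.2 (median 14479) in the first and between 14159 and 17168 (median 16200.0) in the ninth hour. The groups overlapped, with 7 of 8 animals of the ninth hour above all of the first. *Psmb3* rose by 0.18 in log2 units (adjusted p = 0.00781, SE 0.0399, with 0.27, 0.094 and 0.13 on the slides, 0.17 with slide as a block, and 0.11 with adjusted p = 0.9103 without slide 1). It also did not pass with Cy3 alone and slide as a block, without slide 3 or with the processed green signal. None of 50 measured cytosolic ribosomal protein genes differed significantly by limma (3 at an unadjusted p under 0.05), with a median log2 fold change of 0.0042 and the smallest adjusted p for *Rpl28* (log2 0.073, adjusted p = 0.4). None of 22 genes of FoxO factors, sestrins and brakes of mTOR did either (6 at an unadjusted p under 0.05; median log2 -0.067). Those 6 genes were 2 higher and 4 lower, against 6.77% and 5.47% of all genes. *Rptor* of this list, the gene of the scaffold of mTOR complex 1, had groups that did not overlap. It lay from 3749.8 to 4365 in the first and from 3454 to 3713 in the ninth hour, but did not pass the test (log2 -0.13, adjusted p = 0.174).

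The listed genes of neuronal signalling displayed no significant differences by limma: none of 22 glutamate receptor genes (4 at an unadjusted p under 0.05; median log2 0.011), 15 GABA receptor genes (3 and 0.035), 30 genes of voltage-gated and leak potassium channels (3 and 0.052), 28 of sodium and calcium channels (4 and 0.0097), 26 of synaptic vesicles and SNARE proteins (5 and 0.038), 15 of adenosine and purine signalling (1 and 0.031), 20 of hippocampal neuropeptides (2 and 0.018) and 21 of neurotrophins and their receptors (1 and 0.00065). The smallest adjusted p among them was that of *Grik4*, a kainate receptor subunit gene, which lay between 6114 and 7174 (median 6540.3) in the first and between 5218 and 6199 (median 5889.6) in the ninth hour (log2 -0.18, adjusted p = 0.0631, SE 0.052). Its groups overlapped. With slide as a block *Grik4* passed the threshold (log2 -0.20, adjusted p = 0.02879, with 0.02879 to 0.4606 over 19 alternatives). In other lists it was that of the GABA B receptor gene *Gabbr1* (log2 0.17, adjusted p = 0.18), the calcium channel and AMPA receptor auxiliary subunit gene *Cacng3* (log2 0.30, adjusted p = 0.108), the synapsin gene *Syn3* (log2 -0.17, adjusted p = 0.174), the nucleoside transporter gene *Slc29a1* (log2 0.13, adjusted p = 0.44), the prodynorphin gene *Pdyn* (log2 -0.18, adjusted p = 0.41) and the growth factor receptor gene *Igf1r* (log2 0.20, adjusted p = 0.455).

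The last lists held no significant difference by limma either: 13 genes of thyroid hormone activation and response (2 at an unadjusted p under 0.05; median log2 0.050), 18 interferon-stimulated genes (1 and 0.070), 21 genes of proliferation and adult neurogenesis (9 and -0.0040) and 21 of collagens and extracellular matrix (4 and 0.026). *Sox11*, a transcription factor gene of newborn neurons, had groups that did not overlap, from 557 to 754 (median 649.6) in the first and from 419 to 529.8 (median 521) in the ninth hour, and a log2 fold change of -0.37 (adjusted p = 0.0888, SE 0.104). In its list 3 higher and 6 lower genes had an unadjusted p under 0.05, against 6.77% and 5.47% of all genes. In other lists the genes with the smallest adjusted p were the interferon signalling gene *Stat2* (log2 -0.22, adjusted p = 0.0671) and the laminin gene *Lama2* (log2 0.15, adjusted p = 0.417). Of 19 alternatives, *Sox11* passed under 4 (adjusted p = 0.006567 to 0.8976) and *Stat2* under 3 (adjusted p = 0.03822 to 0.8683), and both did so without the animals with high interferon-stimulated genes. Across all 34 pathway lists, 21 of 774 distinct genes differed significantly, in 11 of the lists, against 199 of all 23787 genes (0.837%). The lists were chosen with earlier results of these data known, so nothing can be read from this difference.

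**Figure D5:**
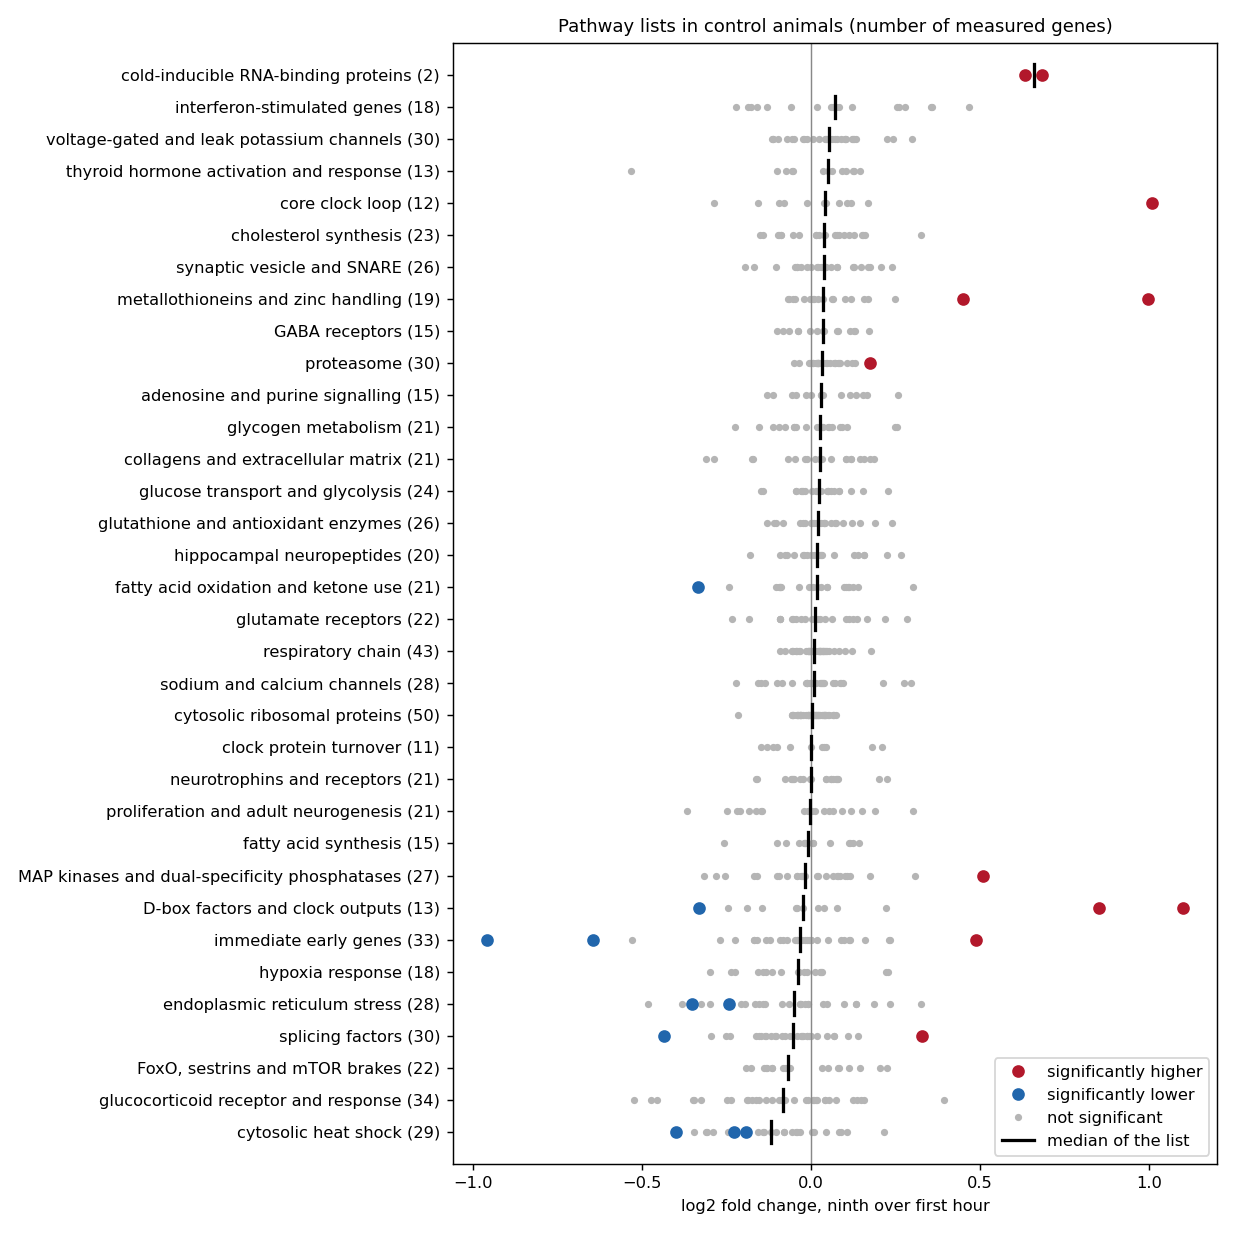
Log2 fold change of the ninth over the first hour for each measured gene of 34 pathway lists in control animals, with the number of measured genes in parentheses. Large points are genes that rose (red) or fell (blue) significantly, and bars mark the medians, which run from -0.12 for cytosolic heat shock to 0.66 for the 2 cold-inducible genes.

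Several of the genes with the smallest adjusted p belong to none of the pathway lists. Among those that rose, the tetraspanin gene *Tspan4* lay between 1262 and 1651 (median 1486) in the first and between 1777 and 2417 (median 2189) in the ninth hour, and its log2 fold change was 0.55 (adjusted p = 1.63e-05, SE 0.0778). *Hspa12b*, an HSP70 family gene of endothelial cells, lay between 175 and 203 (median 185) and between 229 and 278 (median 247) in these hours, with a log2 fold change of 0.42 (adjusted p = 8.15e-05, SE 0.0655). The groups of both genes did not overlap. For *Hspa12b* the whole rise came after the fifth hour, with a log2 difference of 0.0019 up to it and of 0.42 from it (adjusted p = 0.000496); its spot lies in the columns that were dim on some arrays, and without those arrays its log2 fold change was 0.43 (adjusted p = 1.082e-05). The lysosomal gene *Plbd2* rose by 0.30 (adjusted p = 4.83e-05, SE 0.0461), without overlap. *Lmna*, the gene of the nuclear lamins A and C, rose by 0.31 with groups that overlapped (adjusted p = 0.000182, SE 0.052), and by 0.35 at a second probe (adjusted p = 0.00194), while the dimmest, A_65_P12904, had a log2 fold change of -0.044 (adjusted p = 0.944).

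Of the genes that fell, *Rnf32*, which encodes a RING finger protein, had the smallest adjusted p. It lay between 1576 and 1849 (median 1724) in the first and between 1119 and 1364 (median 1268) in the ninth hour, without overlap, and fell by 0.43 in log2 units (adjusted p = 1.63e-05, SE 0.0614). *Adam8*, a metalloprotease gene, lay between 267 and 451 (median 329.9) in the first and between 165 and 262 (median 187) in the ninth hour. These groups did not overlap either. *Adam8* fell by 0.75 (adjusted p = 0.000864, SE 0.129, with -0.98, -0.44 and -0.84 on the slides). *St13*, which encodes a co-chaperone of HSP70 proteins and was on none of the lists, lay between 2579.8 and 2902 (median 2689.6) in the first and between 2194 and 2359 (median 2294) in the ninth hour, without overlap. *St13* fell by 0.25 (adjusted p = 0.000644, SE 0.0452), and by 0.28 without slide 1 (adjusted p = 0.01139).

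The fall of the others ranged from -0.75 for *1500004A13Rik* (adjusted p = 0.00123) to -0.26 for *Txlng* (adjusted p = 0.00143), a taxilin gene. Between them lay the delta-tubulin gene *Tubd1* (log2 -0.42, adjusted p = 0.00014), the protein kinase A inhibitor gene *Pkib* (log2 -0.41, adjusted p = 0.00158, and -0.39 without the arrays with dim columns), the zinc finger gene *Zfp236* (log2 -0.39, adjusted p = 0.00143), the ESCRT gene *Vps37a* (log2 -0.33, adjusted p = 0.00093), *Ccpg1*, the gene of a receptor for autophagy of the ER (log2 -0.32, adjusted p = 0.000513), and *2700049A03Rik* (log2 -0.29, adjusted p = 0.00143). The dimmer probes of these genes displayed no significant difference, with log2 fold changes of -0.021 and -0.095 for *Pkib*, -0.015, -0.013 and -0.031 for *Txlng*, -0.098 and -0.049 for *Zfp236*, -0.13 and -0.12 for *Ccpg1* and -0.062 for *2700049A03Rik*. With slide as a block, the brightest probes of all genes of this and the preceding pair of paragraphs still differed significantly. Without slide 1, all but *St13* had an adjusted p over 0.05.

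Markers of cell types and neighbouring tissue were read as levels, since in bulk tissue fewer cells of a type and less RNA per cell cannot be told apart. Neuronal and hippocampal markers were bright in both hours, as befits the labelled tissue: *Camk2a* had medians of 59994 and 55588 in the first and the ninth hour, the dentate gyrus marker *Prox1* of 2697 and 2350.1 and the CA1 marker *Wfs1* of 8354 and 8468. The CA2 marker *Rgs14* had medians of 5611 and 6294. Of 11 markers of neighbouring cortex, striatum and thalamus, 10 had a mean signal of 50 or more. Among them were *Calb1* (medians of 11021 and 10994) and *Ppp1r1b* (2386 and 2579.7). Hippocampal neurons can express such genes too, *Calb1* among them, so these levels do not show that neighbouring tissue was present. *Drd2* was not above background in any animal of these hours. The choroid plexus marker *Ttr* was low and scattered, from 88.8 to 707 and from 81.5 to 881. Of 14 marker lists, 13 held no significant difference by limma. With slide as a block, *Grik4* of the CA2 and CA3 markers also fell (log2 -0.20, adjusted p = 0.02879).

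The exception without a block was *Cldn5*, a tight junction gene and 1 of 10 endothelial markers. It lay between 2645 and 3761 (median 3133) in the first, between 3060.1 and 3719 (median 3479) in the fifth and between 1902 and 2853 (median 2536) in the ninth hour. The first and the ninth hour overlapped, with 5 of 8 animals of the ninth below all of the first. *Cldn5* fell by 0.34 in log2 units (adjusted p = 0.0202, SE 0.0786, with -0.49, -0.19 and -0.40 on the slides, -0.36 with slide as a block, and -0.30 with adjusted p = 0.6596 without slide 1), and by 0.46 from the fifth to the ninth hour (adjusted p = 0.00266). The other endothelial markers did not move with it: 6 of the 10 had a positive log2 fold change and the median was 0.035. *Flt1* had a log2 fold change of -0.046 (adjusted p = 0.914) and *Ly6c1* of 0.18 (adjusted p = 0.4), and the summed signal of the list had medians of 18044.7 and 18078.2.

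Some marker lists had members mostly on the same side without a significant difference. All 10 microglia markers had positive log2 fold changes (2 at an unadjusted p under 0.05; median 0.12, and 0.13, 0.084 and 0.13 on the slides), with summed medians of 46036.1 and 48660.6 and *Itgam* the brightest. The same was true of 9 of 10 mural markers (1; median 0.10), with summed medians of 14632.3 and 16091. Dentate gyrus markers were negative in 7 of 8 (1; median -0.12, and 0.0092, -0.18 and -0.042 on the slides), with summed medians of 15340 and 13927.1. Oligodendrocyte and myelin markers were positive in 9 of 12 (4 at an unadjusted p under 0.05, median 0.062, and 0.22, 0.25 and -0.047 on the slides), with summed medians of 114759 and 111614, and among them *Opalin*, a myelin gene, had medians of 224 and 345 with overlap (log2 0.54, adjusted p = 0.101) and passed under 5 of 19 alternatives (adjusted p = 0.02195 to 0.8469). Pan-neuronal markers were negative in 8 of 10 (median -0.061), and interneuron markers (8 of 10, median 0.017), neighbouring tissue markers (9 of 11, median 0.041) and choroid plexus and ependyma markers (9 of 12, median 0.024) were mostly positive. CA1 (median 0.026), CA2 and CA3 (-0.061), astrocyte (-0.0031), oligodendrocyte precursor (0.017) and blood markers (-0.17) were the other lists. For comparison, 12.2% of all genes had an unadjusted p under 0.05. The probes of *Itgam* were unlike: that used had a mean signal of 25508.5 (log2 0.0029) and the other of 38.5 (log2 -0.18). Which of them reads *Itgam* was not tested. The part of these cells in the results above was not tested.

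Over the course of the resting period, the mean of the fifth hour lay between those of the other hours for 188 of the 199 genes; the first and the ninth hour chose these genes, so that nothing can be read from this order. For 89 of them the larger step was that from the first to the fifth hour, and for 110 that from the fifth to the ninth. By themselves, 2 genes differed from the first to the fifth hour (0.00841%) and 16 from there to the ninth (0.0673%), the latter including *Dbp*, *Ciart*, *Hspa12b*, *Tspan4*, *Rnf32*, *Cldn5* and *Per1*. These comparisons share animals with that of the ninth and first hour.

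The corticosterone-treated animals of the same arrays gave the background against which the change of the control animals can be set. The change between the hours differed between the treatments for 468 probes and 345 genes (1.45%), and 8 of these genes were among the 199. *Mt2*, *Mt1* and *Cldn5* were 3 of them; *Cldn5* had a log2 fold change of 0.27 in corticosterone-treated animals, and the difference was 0.60 (adjusted p = 2.53e-05). For *Nr1d1*, *Dbp*, *Cirbp* and *Rbm3*, the log2 fold changes in the treated animals were 1.11, 0.89, 0.59 and 0.49, and no difference between the treatments was detected (adjusted p = 1, 1, 1 and 0.831).

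Few genes passed without slide 1, which left 4 animals of the ninth and 6 of the first hour. Differences of place on the slides, of litter and of processing order could not be told apart from the hour.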

How the data were processed

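RNA of the hippocampus was measured on 24 two-color arrays of 56605 probes, of which 34566 were matched to gene names. The deposited values are the intensity of each spot and its local background in Cy3 (control animals) and Cy5 (corticosterone-treated animals), read by the authors with Feature Extraction. Backgrounds were subtracted by normexp with limma 3.58.1 in R 4.3.3, the offset being 50 where p was computed and 0 where signal, log2 fold changes and SE were; dyes were normalized within arrays by loess and channels between arrays by quantiles. A separate channel fit (statmod 1.5.0) over 6 groups gave the ninth minus the first hour in Cy3, with Benjamini-Hochberg adjusted p under 0.05 as the threshold; it was tested on simulated data. A gene was read by its brightest probe. Named genes were all members of the clock, clock output and cold-inducible lists, up to 5 significant members (or that with the smallest adjusted p) of each other list, the 12 genes that rose and the 12 that fell with the smallest adjusted p and a signal of 50 or more, and up to 3 markers per cell type. Members and lists were chosen with earlier results of these data known. Alternatives were other offsets, backgrounds, normalizations, signals, filters, variances and slide terms, each slide left out, and, chosen after the data had been seen, arrays with dim columns and animals with high interferon-stimulated genes left out. Data were read with the R packages data.table (1.17.8) and jsonlite 2.0.0, and figures Python 3.11.15, matplotlib 3.10.9 and numpy 2.4.6.

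Each animal was measured once, with 8 animals per hour, 60.8 to 67.2% of spots above background and no saturated probe in Cy3, and the power for a given change was not measured on these arrays. The dyes were never exchanged, so that levels of the treatments cannot be compared apart from dye. The change between hours sets Cy3 against Cy3, but both channels were normalized together. Each Cy3 value, and so this change, therefore depends in part on the Cy5 channel of its array. Litters were not labelled. Hour and place on the slide cannot be told apart, and slide 1 held 4 of the 8 animals of the ninth hour. Probes without a name were tested but not described.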

Additional observations from a re-analysis of the deposited data

Results flagged for a closer look

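Within an hour, an animal lay far from the other 7 in 21 of 276 groups of 92 named genes; chance puts about 1 in 20 groups past this mark. The first hour had 8 of these, the fifth hour 9 and the ninth hour 4; 6 were the highest and 15 the lowest of their group, and they were 12 different animals. The value given is the gap to the nearest animal as a share of the range of the group, on the log2 scale.

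In the first hour these were *1500004A13Rik* in replicate 1 (0.542), *Ciart* in replicate 6 (0.697), *Dhcr7* in replicate 7 (0.723), *Lama2* (0.545) and *Pdk1* (0.529) in replicate 3, *P4ha1* (0.618) and *Per3* (0.567) in replicate 2, and *Tef* in replicate 8 (0.584). In the fifth hour they were *Cry1* (0.581), *Dhcr7* (0.625) and *Grik4* (0.631) in replicate 3, *Fos* (0.578), *Gsr* (0.744), *Nampt* (0.613) and *Pkib* (0.619) in replicate 7, and *P4ha1* (0.653) and *Per1* (0.652) in replicate 5. In the ninth hour they were *Bhlhe40* in replicate 5 (0.547), *Bhlhe41* in replicate 8 (0.545), and *Nfil3* (0.568) and *Psmb3* (0.534) in replicate 6.

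*Ciart*, *Gsr* and *Pkib* have their spots in the columns that were dim in both channels on the arrays of replicate 6 of the first hour and replicate 7 of the fifth hour. The region was dim for both dyes, and so for 2 animals at once; the cause was not tested, and the other animals listed here were not traced to a place on their array.

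The change between the first and the ninth hour differed between corticosterone-treated and control animals for named genes as follows, as the log2 change of the treated minus that of the control animals: *Mt2* -1.823, *Mt1* -0.7577, *Klf15* -0.6876, *Gpr17* -0.4102, *Per1* -0.3051 and *Cldn5* 0.6047. Treatment went with dye on every array, but a constant difference between dyes drops out of these values.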

How the results depend on the processing

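The alternatives reuse the same arrays or some of them, and the 199 genes were chosen from these arrays, so that a direction kept under an alternative is expected and is not counted here. *Dbp* (log2 0.75 to 0.98, adjusted p = 2.316e-08 to 0.01139) and *Mt2* (log2 0.88 to 1.05, adjusted p = 7.239e-11 to 0.0009078) passed the threshold under all 19. *Cirbp* did so under 18 (adjusted p = 6.217e-06 to 0.0572) and *Ciart* under 17 (adjusted p = 1.247e-05 to 0.1303), and *Arc* did so under 12 (adjusted p = 0.003225 to 0.645). *Tef* passed under 7 (adjusted p = 0.00237 to 0.9361) and *Grik4* under 4, among them slide as a block (adjusted p = 0.02879 to 0.4606). *Sult1a1* passed under 2 (adjusted p = 0.04586 to 0.881), and *Ppp1r3c* (adjusted p = 0.03574 to 0.6868), *P4ha1* (adjusted p = 0.03549 to 0.5251) and *Cacng3* (adjusted p = 0.03072 to 0.9997) under 1 each.

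Without slide 1, and so with 4 animals of the ninth and 6 of the first hour, 5 probes passed, 4 higher and 1 lower, of 5 genes, 3 of them members of the gene lists. This leaves fewer animals, and the cause was not tested. From the first to the fifth hour 1 probe then passed, and 0 from there to the ninth by limma; the treatments differed in their change for 123 probes. *Clock* then had a log2 fold change of 0.024 in place of a negative value.

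Without slide 2, 92 probes were lower, 121 genes passed and 14 members of the lists did; 4 probes passed between the fifth and the ninth hour, and the treatments differed for 259. *Per3* (0.033), *Arntl* (0.0065), *Sik1* (0.053) and *Wee1* (0.083) changed sign. Without slide 3, 130 probes passed, 53 higher and 77 lower, of 95 genes; 0 passed from the first to the fifth hour by limma and 2 from there to the ninth, and the treatments differed for 178. *Noct* (-0.018), *Hlf* (0.025) and *Bhlhe41* (-0.076) changed sign. None of the genes that changed sign was significant in either form. Both leave fewer animals; the cause was not tested further.

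With the processed green signal, 73 probes passed, 29 higher and 44 lower, of 46 genes, 11 of them members of the lists, and the median log2 fold change over all genes was -0.030 in place of 0.0048. With Cy3 alone, 37 members of the lists passed. The cause was not tested. With filters for signal fewer probes are tested. With a mean signal of 50 or more 448 probes of 295 genes passed, 245 of the probes higher. With signal well above background 456 probes of 298 genes passed, 251 of the probes higher.

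With the arrays of the first and ninth hour only, 476 probes passed, 264 higher and 212 lower, of 309 genes; the cause was not tested. With an offset of 0 for p values, 1 probe passed from the first to the fifth hour and 10 from there to the ninth; with a trend of the variances, 10 did in the latter. Without the animals with high interferon-stimulated genes, 9 probes passed from the first to the fifth hour, and *Arntl* (0.0065) and *Bhlhe41* (-0.033) changed sign. The cause was not tested.

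Of the probes that passed, 9 had a mean signal under 50, and whether such calls are less certain was not tested.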

Other observations

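The probe of *Drd2*, a marker of neighbouring striatum, was above background in none of the 16 control animals of the first and the ninth hour, with a signal intensity between 20.7 and 33.7 in the first and between 26.3 and 42 in the ninth hour.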
